A study of Homo sapiens with 2 samples.

Results

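The list of V5-RRN3 PAR-CLIP (photoactivatable ribonucleoside-enhanced crosslinking and immunoprecipitation) peaks held 154 peaks in the genes of small nucleolar RNAs (snoRNAs), small Cajal body RNAs (scaRNAs), spliceosomal and other small nuclear RNAs (snRNAs) and other short structured RNAs, of 7793 peaks in all (1.98%, 95% Wilson interval 1.69–2.31%). A peak was counted here when its middle base lay, on the same strand, in a gene that GENCODE release 44 types as snoRNA, scaRNA, snRNA, misc_RNA, vault_RNA, rRNA or rRNA_pseudogene, and in no microRNA gene. The last condition left out 5 peaks, all in SNORA36B where it overlaps MIR664A. The 154 peaks lay in 50 genes on 17 of the 19 chromosomes that carry a peak, and joining peaks of 1 strand that touch gave 54 sites, or 1.19% of the 4524 sites of the whole list.

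SK-OV-3 is an established human ovarian cancer line, and here it stably expressed RRN3 with a V5 tag at its N terminus from a lentiviral vector with the EF1a promoter, beside the cells' own RRN3. RRN3 is the factor that brings RNA polymerase I to the promoters of the ribosomal RNA genes. All cells received 100 μM 4-thiouridine for 14 h, a uridine analogue that crosslinks to bound protein under the 365-nm UV light (0.2 J/cm2) they were then given. RNA came from 1 anti-V5 immunoprecipitate and from 1 input of the same kind of lysate, with no untagged or mock precipitate, so the design has no replicate and no p-value of its own, and every interval below covers the number of peaks or genes only.

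Most snoRNAs belong to 1 of 2 families. Box C/D snoRNAs, named SNORD, carry a C box near the 5′ end and a D box near the 3′ end, are held by the proteins SNU13, NOP56, NOP58 and fibrillarin, and direct ribose methylation of ribosomal RNA by base pairing next to the D box or to an internal copy of it. Box H/ACA snoRNAs, named SNORA, are held by dyskerin, NHP2, NOP10 and GAR1 and direct pseudouridylation. ScaRNAs, named SCARNA, do the same for spliceosomal RNAs in Cajal bodies. In human cells nearly all of them are cut out of the introns of host genes, many of which encode ribosomal proteins or translation factors, and the mature RNA begins and ends close to its annotated gene.

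Peaks lay in 32 SNORD genes, 4 SNORA genes, 3 SCARNA genes, 5 snRNA genes, 3 misc_RNA genes and 3 pseudogenes of ribosomal RNA. These 50 genes were 1.08% (0.820–1.42%) of the 4631 small RNA genes on chromosomes with peaks, against 7.30% of all 51473 annotated genes and 0.134% of 3736 genes of at most 400 bases outside the small RNA and microRNA types. SNORD genes held 108 of the 154 peaks (70.1%, 62.5–76.8%), snRNA genes 18, SCARNA genes 9, misc_RNA genes 7, and SNORA genes and ribosomal RNA pseudogenes 6 each. By GENCODE type the snoRNA genes held 118 peaks (76.6%), since SCARNA10 carries that type. Median figures were 3.00 peaks per gene and 15 bases per peak, against 10 bases in the other peaks of the list.

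The sequences of the SNORD genes in which peaks covered every base, or nearly so, are shown first, because this was the most frequent pattern. In all sequences below, taken from GRCh38 in the direction of transcription, capitals mark the bases covered by a peak and lower case marks bases of the gene outside peaks.
SNORD65 (chr17:16441226-16441298, plus strand): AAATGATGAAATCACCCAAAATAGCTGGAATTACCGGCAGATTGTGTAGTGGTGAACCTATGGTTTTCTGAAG
SNORD48 (chr6:31835263-31835326, plus strand): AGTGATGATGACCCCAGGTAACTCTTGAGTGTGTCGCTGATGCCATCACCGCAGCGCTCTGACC
SNORD14D (chr11:123058909-123058995, minus strand): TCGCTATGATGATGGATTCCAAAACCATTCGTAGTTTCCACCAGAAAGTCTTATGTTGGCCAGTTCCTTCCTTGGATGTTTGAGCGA
SNORD117 (chr6:31536374-31536449, minus strand): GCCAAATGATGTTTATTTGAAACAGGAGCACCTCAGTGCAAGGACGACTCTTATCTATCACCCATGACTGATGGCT
SNORD67 (chr11:46762389-46762499, minus strand): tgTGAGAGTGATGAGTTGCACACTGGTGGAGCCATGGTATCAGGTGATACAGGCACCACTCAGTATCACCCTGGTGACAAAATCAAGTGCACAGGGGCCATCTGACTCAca

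A smaller set of SNORD genes had peaks on 1 short stretch only. They are shown because their stretches lay at 1 end of the RNA and most of them were among the strongest peaks in snoRNA genes.
SNORD12 (chr20:49280683-49280772, plus strand): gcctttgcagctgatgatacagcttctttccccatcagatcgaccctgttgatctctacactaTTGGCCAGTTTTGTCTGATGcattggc
SNORD12B (chr20:49280319-49280409, plus strand): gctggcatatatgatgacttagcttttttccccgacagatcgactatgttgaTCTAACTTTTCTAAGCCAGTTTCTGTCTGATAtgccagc
SNORD14C (chr11:123059335-123059422, minus strand): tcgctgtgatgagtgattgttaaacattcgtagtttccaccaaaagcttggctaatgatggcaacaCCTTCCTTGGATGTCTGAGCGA
SNORD32A (chr19:49489965-49490048, plus strand): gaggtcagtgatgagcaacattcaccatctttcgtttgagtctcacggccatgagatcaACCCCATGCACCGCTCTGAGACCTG
SNORD33 (chr19:49490615-49490699, plus strand): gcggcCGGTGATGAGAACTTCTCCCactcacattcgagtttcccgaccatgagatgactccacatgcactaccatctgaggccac
SNORD60 (chr16:2155023-2155105, minus strand): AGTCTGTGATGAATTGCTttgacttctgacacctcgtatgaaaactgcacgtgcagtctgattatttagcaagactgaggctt

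In SNORD58A, SNORD43 and SNORD99 the peaks ran over almost the whole gene, and the strongest of them lay at 1 or both ends. SNORD58B, a copy of SNORD58A in the same host without a listed peak, stands beside them for comparison.
SNORD58A (chr18:49491283-49491347, minus strand): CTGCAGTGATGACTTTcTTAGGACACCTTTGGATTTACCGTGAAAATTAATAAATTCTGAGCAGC
SNORD58B (chr18:49491664-49491729, minus strand): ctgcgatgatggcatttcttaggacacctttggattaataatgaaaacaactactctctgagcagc
SNORD58C (chr18:49489245-49489308, minus strand): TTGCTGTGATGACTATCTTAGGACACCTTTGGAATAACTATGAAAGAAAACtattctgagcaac
SNORD43 (chr22:39319050-39319113, minus strand): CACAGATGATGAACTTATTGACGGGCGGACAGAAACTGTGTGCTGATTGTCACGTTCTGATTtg
SNORD99 (chr1:28578749-28578822, minus strand): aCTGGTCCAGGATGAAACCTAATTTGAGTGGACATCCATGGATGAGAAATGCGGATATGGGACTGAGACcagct

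In the SNORD genes, peaks followed the mature RNA. The median share of a SNORD gene covered by peaks was 92.0% (range 21.7–100%, n = 32 genes), and 17 of the 32 were covered over more than 90% of their length. In 24 genes the first covered base lay within 5 bases of the 5′ end, in 22 the last one lay within 5 bases of the 3′ end, in 17 both held, and in 3 neither did. Peaks reached at most 3 bases before and 2 bases after a SNORD gene. None of the 7793 peaks had its middle in the 100 bases on either side of the 50 genes, nor on the opposite strand within them. The genes themselves, 5574 bases in all, held 27.6 peaks per kb, a density fixed in part by the choice of genes with a peak.

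**Figure D1:**
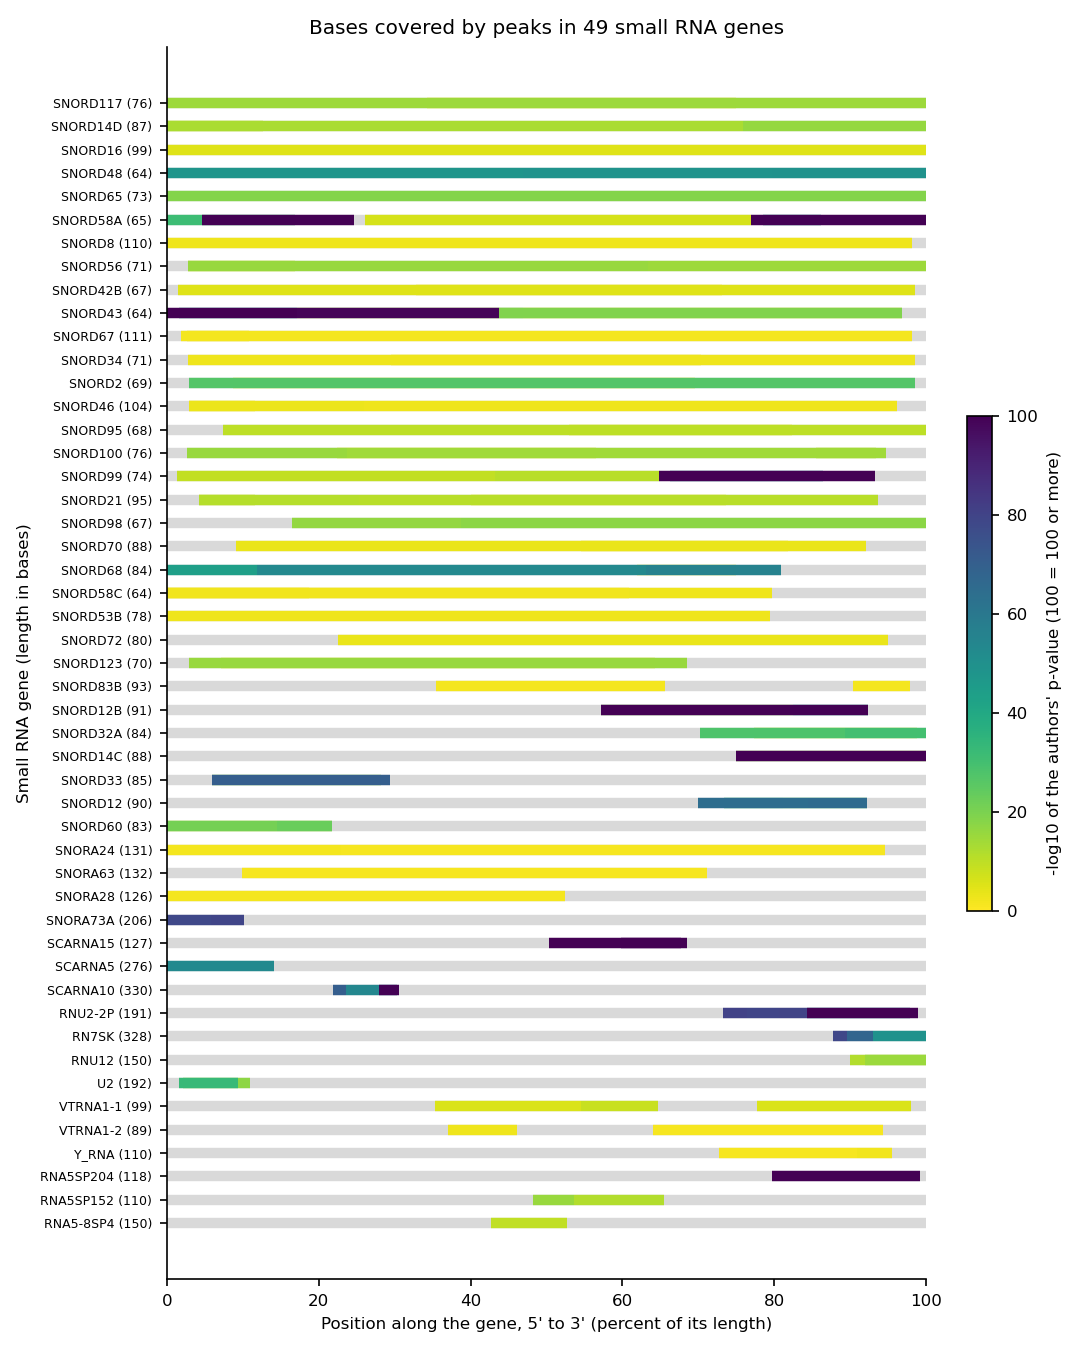
Bases covered by peaks along 49 of the 50 small RNA genes, scaled from the 5′ end (0) to the 3′ end (100% of the gene's length), with the gene's length in bases in brackets. Colour gives −log10 of the authors' p-value, the strongest peak on top. Yellow and light green bars span most of the upper SNORD genes (17 of 32 covered over 90%), and dark bars are short and often at 1 end.

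SNORD65, which is cut from an intron of SNHG29, was an example of full coverage. Its 4 peaks abutted each other from 3 bases before the gene to 1 base after it, with p-values from 1.81e-19 to 2.20e-19. SNORD48, in SNHG32, was covered over all 64 bases by 3 abutting peaks with p-values from 2.70e-50 to 2.19e-48. Neighbouring peaks of 1 gene thus often carried almost the same p-value, so they do not count as separate observations. SNORD67, in CKAP5, held the longest of the 154 peaks, which spanned 107 bases with an authors' p-value of 0.0193, and a shorter peak inside it with a p-value of 0.0395. SNORD117, SNORD14D and SNORD16 were also covered from end to end, with lowest p-values of 1.93e-15, 1.71e-16 and 1.07e-05.

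Long peaks were concentrated in these genes. Of the 35 listed peaks of 40 bases or more, 21 (60%) were in small RNA genes, as were 11 of the 18 of 60 bases or more, whereas none lay in a microRNA gene. The other 14 lay in genes such as RPLP0, RPL19, RPS18, SNRPB and POLQ. The long peaks in small RNA genes had a median p of 7.10e-04, against 9.23e-32 for the 96 peaks there under 20 bases. Across the 148 peaks with a p above 0, the Spearman correlation of length with −log10 p was −0.487, and across the 7065 such peaks elsewhere it was −0.347. All of these peaks come from the same pair of libraries and many overlap, so the correlations describe the list only.

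**Figure D2:**
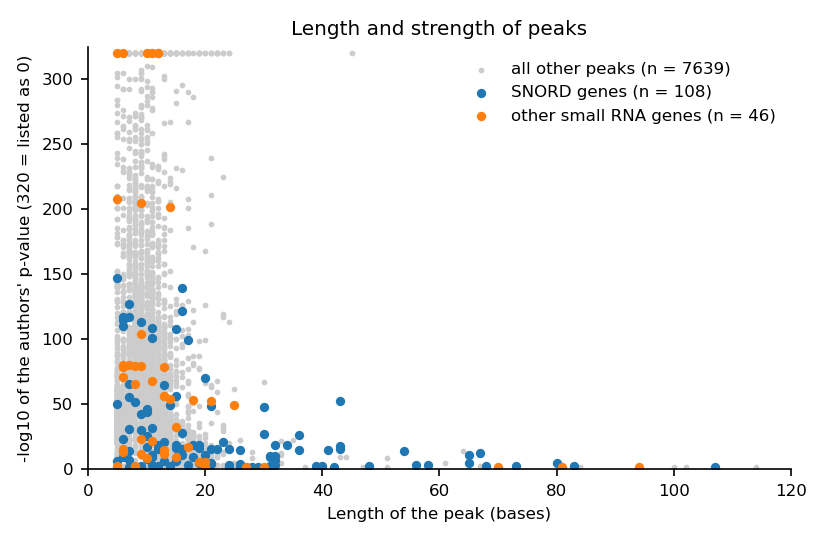
Length of each peak in bases against −log10 of the authors' p-value, with p-values listed as 0 drawn at the upper edge. Blue points are the 108 peaks in SNORD genes, orange points the 46 in other small RNA genes and grey points all other peaks. Beyond 40 bases, 21 of the 35 peaks are in small RNA genes and most lie near the bottom of the plot.

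Taken over all lengths, the peaks in small RNA genes were weaker than the rest. Their median p was 2.08e-16, against 3.78e-94 for the 471 peaks in microRNA genes and 7.51e-46 for the 7168 other peaks. A p above 1e-05 was given to 41 of the 154 (26.6%, 20.3–34.1%) and to 9.04% (8.40–9.73%) of the other peaks outside microRNA genes. A p listed as 0 was given to 6 of the 154 (3.90%, 1.80–8.24%), against 7.44% of all listed peaks, and these 6 lay in SCARNA15 and RNA5SP204. Among peaks under 20 bases, the 96 in small RNA genes and the other peaks outside microRNA genes were closer in these shares. A p above 1e-05 was given to 11.5% (6.52–19.4%) and 8.56%, and a p of 0 to 6.25% and 6.15%. Their medians still differed, at 9.23e-32 in small RNA genes and 5.42e-47 in the others. The medians of the classes also differed, and the 18 snRNA peaks, which formed only 5 sites, had a median p of 4.24e-57, lower than that of the other peaks. The authors' fold enrichment did not separate the groups, with medians of 2.81 in small RNA genes and 2.99 in the other peaks outside microRNA genes, and its correlation with −log10 p over the 148 peaks was 0.0841. The false discovery rate was 1 for all 154 peaks, as for the whole list.

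Taken over single peaks, the median strength differed along the SNORD genes and was greatest in the 3′ part. With each SNORD gene divided into 5 equal parts, the 23 peaks in the last part had a median length of 9 bases and a median p of 1.87e-30, whereas the 18 peaks in the middle part had a median length of 40 bases and a median p of 0.00104. From the 5′ end, the other parts had medians of 1.59e-14, 8.70e-14 and 6.98e-20, so peaks at the 5′ end were about as strong as those in the next part. Many peaks of a part overlap or share a gene, as do the 4 of SNORD14C in the last part. The medians thus describe listed peaks and not genes. Peaks were also placed by their midpoint, so a peak that spans most of a gene falls in the middle part. The 107-base peak of SNORD67 is an example. Long peaks had weaker p-values throughout the list, and strength along the gene was not tested apart from peak length. The number of peaks itself was spread over the gene, with 25, 20, 18, 22 and 23 in the 5 parts from the 5′ to the 3′ end. The 7 SNORD genes covered over less than 50% of their length had a median lowest p of 4.02e-66, and the 25 others a median of 1.93e-15. Across the 32 genes the Spearman correlation of coverage with −log10 of the lowest p was −0.157. Without SNORD58A, SNORD99 and SNORD43, which were widely covered and strong, it was −0.299. These genes were picked by the same values that the correlation compares. A more negative correlation without them thus follows from the choice and is no further sign of a trend.

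SNORD12 and SNORD12B, in neighbouring introns of the non-coding gene ZFAS1, had their only sites at matching places near the 3′ end. The 20-base site of SNORD12 covered bases 64 to 83 of 90 with a lowest p of 4.02e-66, and the 32-base site of SNORD12B covered bases 53 to 84 of 91 with a lowest p of 8.02e-111. Both sites held the D box and neither held the C box. SNORD12C, in the same host and 73.1% and 74.2% identical to the pair, had no peak.

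SNORD14C and SNORD14D lie in introns 5 and 6 of HSPA8, which encodes a constitutive heat shock protein, and were 79.1% identical, but their coverage differed. In SNORD14C the 4 peaks lay in the last 22 bases, with p-values of 7.63e-128 and 2.17e-122 and, for peaks overlapping these, 4.24e-18 and 2.44e-16, while in SNORD14D 3 peaks with p from 1.71e-16 to 4.24e-10 covered all 87 bases. SNORD14E, 75.6% and 78.7% identical to these, had no peak. The SNORD14 RNAs are known guides for the small ribosomal subunit, and the stretch of SNORD14C shown in capitals holds 14 bases that pair without a mismatch with 18S rRNA bases 458 to 471.

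Neighbouring introns of RPL13A, the gene of a large-subunit ribosomal protein, gave 3 different patterns. SNORD32A was covered over its last 25 bases (lowest p 1.87e-30), SNORD33 over bases 6 to 25 (lowest p 3.26e-71), and SNORD34 over bases 3 to 70 of 71 with a lowest p of 0.00337. The fourth snoRNA of this host, SNORD35A, had no peak. The site of SNORD33 began just before its C box and ended well before its D box, the reverse of SNORD32A. SNORD60, in SNHG19, was also covered at its 5′ end only, over the first 18 bases with a lowest p of 1.24e-23.

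SNORD58A, in an intron of RPL17, held 9 peaks, more than any other of the 50 genes. At its 5′ end peaks of 6 and 7 bases had p-values of 3.27e-118 and 5.80e-118, and at its 3′ end peaks of 6 and 9 bases had p-values of 1.95e-115 and 1.19e-113. Peaks overlapping these had p-values of 4.96e-32 at the 5′ end and 7.04e-51 at the 3′ end. The 3 peaks between them had p-values from 2.81e-07 to 3.18e-07. SNORD58C, in another intron of the same host and 78.5% identical, was covered over bases 1 to 51 of 64 with p-values from 0.00412 to 0.0347. SNORD58B, 78.8% identical to SNORD58A, had none. The 16-base 5′ site of SNORD58A occurs 7 times in the genome, so its reads may belong to more than 1 locus, and how reads of repeated sequence were placed is not given in the sources used here.

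SNORD43, in the first intron of RPL3, and SNORD99, in SNHG12, held 6 peaks each. In SNORD43 the strongest peaks were at the 5′ end, with p-values of 1.88e-101 and 7.55e-100 over the first 28 bases. Peaks overlapping these had p-values of 5.31e-47 and 4.57e-17, and those over the rest of the gene had 1.38e-19 and 8.11e-08. In SNORD99 they were at the 3′ end, where peaks of 5 and 16 bases had p-values of 5.16e-148 and 5.21e-140, the lowest of any SNORD gene, and peaks overlapping these had 1.65e-56 and 1.64e-52, while the 2 peaks of the 5′ part had p-values of 2.41e-11 and 4.41e-10. The other host with more than 1 such snoRNA was EIF4A2, which encodes a translation initiation helicase and holds SNORD2 (lowest p 1.27e-27, bases 3 to 68 of 69) and SNORA63. RPL3 also holds SNORD83B, whose 2 sites had p-values of 0.0198 and 0.0218, 1 of them only 7 bases long and found 680741 times in the genome.

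Other SNORD genes with low p-values were broadly covered. SNORD68, in RPL13, was covered over its first 68 bases with a lowest p of 9.75e-57. SNORD98 (in CCAR1), SNORD123 (in SNHG18), SNORD100 (in RPS12) and SNORD56 (in NOP56) had lowest p-values of 3.88e-18, 2.57e-16, 3.23e-16 and 4.14e-16 and coverage of 83.6%, 65.7%, 92.1% and 97.2%. SNORD21 (in RPL5) and SNORD95 (in RACK1) had lowest p-values of 6.62e-12 and 9.55e-11 and were covered over 89.5% and 92.6%. NOP56 and NOP58 encode core proteins of the very particles that hold box C/D RNAs, and all peaks in these 2 genes lay in their snoRNAs, 3 in SNORD56 and 3 in SNORD70.

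The C and D boxes were looked for as exact letters on the strand of the gene, TGATGA starting within the first 20 bases and CTGA ending within the last 20. A C box was found in 22 of the 32 SNORD genes and lay wholly under peaks in 17. A D box was found in 31 and lay wholly under peaks in 24. Both boxes were covered in 10 genes, the C box alone in 7, the D box alone in 14 and neither in 1. In this count a box not found as exact letters was treated as not covered. SNORD117 and SNORD16, with no C box found, and SNORD14D, with no D box found, thus count under 1 box although peaks covered them from end to end. The 7 and 14 therefore do not show which box was covered more often. Anywhere within the 34 SNORD sites, TGATGA occurred in 50.0% (34.1–65.9%), against 35.6% of all stretches of the same lengths in all SNORD genes, and CTGA in 79.4% (63.2–89.7%) against 61.1%. The comparison value lay within the interval for TGATGA and just below it for CTGA, and genes covered from end to end hold their boxes by construction.

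A run of at least 10 bases that pairs without mismatch or wobble with 18S, 28S or 5.8S rRNA (numbered from 1 at the 5′ end of the RefSeq genes RNA18SN1, RNA28SN1 and RNA5-8SN1) was found in 26 of the 32 SNORD genes with a peak (81.2%, 64.7–91.1%). Such a run was found in 108 of all SNORD genes without a peak (42.4%, 36.4–48.5%), an interval below that of the genes with a peak. Without the clustered SNORD113 to SNORD116 genes, most of which have no known ribosomal target, it was found in 98 of 138 (71.0%, 63.0–77.9%), and the intervals overlapped. Runs of such length also occurred in genes of other classes, such as RN7SK with 11 bases and U2 with 10. How often they occur in unrelated sequence was not tested, so a run alone does not mark a guide element. The best run was against 18S rRNA in 11 and 28S rRNA in 15. It was wholly covered by peaks in 20 of the 26, partly in SNORD58A, and not at all in 5, namely SNORD12, SNORD32A, SNORD60, SNORD83B and SNORD123. As with the boxes, genes covered from end to end hold their run by construction, and the median coverage of the 32 genes was 92.0%. In SNORD65 the run was 14 bases long (bases 23 to 36, facing 18S rRNA bases 624 to 637), and in SNORD21 it was also 14 bases long (bases 70 to 83, facing 28S rRNA bases 1313 to 1326). SNORD58A and SNORD58C shared a run over bases 17 to 28 that faces 28S rRNA bases 4221 to 4232. In the SNORD14 pair the run faces the same 14 bases of 18S rRNA and was covered in both.

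The shares of thymine and CpG in the covered stretches were close to those of the genes they lie in, which contain these stretches. Thymine made up 28.8% of the 2691 bases in the sites, 28.3% of the 50 whole genes and 28.7% of the 20 bases on each side of the sites, although crosslinking in this assay takes place at 4-thiouridine. In the same order adenine made up 25.6%, 24.5% and 22.7%, cytosine 21.4%, 22.8% and 24.5%, and guanine 24.2%, 24.4% and 24.2%. The dinucleotide CpG occurred at 0.454 of the frequency given by the C and G content in the sites, at 0.478 in the genes and at 0.519 beside the sites.

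Box H/ACA snoRNAs were rarer and, with 1 exception, weak. SNORA24 (in SNHG8), SNORA28 (in EIF5) and SNORA63 (in EIF4A2) had lowest p-values of 0.0245, 0.0201 and 0.0307, with peaks of up to 94 bases that covered 94.7%, 52.4% and 61.4% of the gene. SNORA73A, an H/ACA RNA of unusual length in SNHG3, instead had 2 short abutting peaks over its first 21 bases with p-values of 3.60e-80 and 4.27e-79. Its copy SNORA73B, 93.2% identical and in the same host, had no peak. The letters of the H box, ANANNA, and of the ACA box occurred in 3 and 4 of the 4 SNORA sites, against 69.0% and 68.1% of stretches of the same lengths in all SNORA genes. SNORA73A and the scaRNAs are shown for their short, strong sites.
SNORA73A (chr1:28507366-28507571, plus strand): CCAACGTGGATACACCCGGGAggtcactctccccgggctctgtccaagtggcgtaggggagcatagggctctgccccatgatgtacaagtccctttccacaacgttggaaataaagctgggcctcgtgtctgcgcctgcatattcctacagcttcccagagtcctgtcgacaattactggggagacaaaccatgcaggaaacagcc
SCARNA15 (chr15:82755945-82756071, plus strand): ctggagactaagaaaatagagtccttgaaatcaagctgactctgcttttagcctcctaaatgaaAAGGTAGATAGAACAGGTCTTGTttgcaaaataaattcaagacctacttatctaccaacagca
SCARNA5 (chr2:233275727-233276002, plus strand): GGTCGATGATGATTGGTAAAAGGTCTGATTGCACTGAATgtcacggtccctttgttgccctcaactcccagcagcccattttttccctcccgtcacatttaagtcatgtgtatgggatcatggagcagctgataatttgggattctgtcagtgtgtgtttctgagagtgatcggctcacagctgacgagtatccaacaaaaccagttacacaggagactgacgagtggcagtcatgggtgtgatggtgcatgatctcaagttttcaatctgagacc

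The 9 peaks in SCARNA genes had a median p of 2.29e-71, against 2.01e-15 in SNORD genes and 0.0223 in SNORA genes. The 9 peaks formed only 3 sites and the 6 SNORA peaks only 4, so these medians describe listed peaks and not classes. In SCARNA15, in an intron of SNHG21, 3 peaks covered bases 65 to 87 of 127, and all had a p listed as 0. SCARNA5, in intron 9 of the autophagy gene ATG16L1, was covered over its first 39 bases by 2 abutting peaks with p-values of 1.47e-53 and 1.68e-53. ATG16L1 held 2 other peaks, both outside the scaRNA. SCARNA10, in NCAPD2, was covered over bases 73 to 101 of 330 by 4 peaks with p-values from 2.26e-104 to 1.28e-54.

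Among the snRNA genes, 12 of 18 peaks lay in the last of 5 equal parts of the gene (66.7%, 43.7–83.7%), of which 6 were in RNU2-2P, 3 in RNU12 and 3 in RN7SK. The 18 peaks formed only 5 sites, 1 in each of the 5 genes. The interval therefore counts touching and overlapping peaks as separate and says little about snRNA genes in general. Sequences of 4 of these RNAs are shown with their covered bases, for RN7SK only the last 60 bases.
RNU2-2P (chr11:62841619-62841809, minus strand): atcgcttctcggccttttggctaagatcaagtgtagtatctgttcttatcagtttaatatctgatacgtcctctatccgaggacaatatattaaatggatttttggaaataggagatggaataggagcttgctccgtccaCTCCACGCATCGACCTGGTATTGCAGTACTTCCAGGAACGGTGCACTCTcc
U2 (chr17:43273101-43273292, minus strand): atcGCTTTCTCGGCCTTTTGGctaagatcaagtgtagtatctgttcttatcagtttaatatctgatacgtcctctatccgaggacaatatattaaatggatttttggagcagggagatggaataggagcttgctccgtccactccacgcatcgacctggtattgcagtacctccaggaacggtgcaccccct
RNU12 (chr22:42615244-42615393, plus strand): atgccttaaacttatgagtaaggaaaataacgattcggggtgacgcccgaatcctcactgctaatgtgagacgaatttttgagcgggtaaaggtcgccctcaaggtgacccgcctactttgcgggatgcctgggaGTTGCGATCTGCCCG
RN7SK (chr6:52995889-52995948, plus strand): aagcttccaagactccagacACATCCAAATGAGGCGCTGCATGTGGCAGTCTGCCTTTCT

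RNU2-2P, a gene of U2, the spliceosomal RNA that pairs with the branch site, held 8 peaks over bases 141 to 189 of 191. In its 3′ part 3 abutting peaks had p-values of 8.37e-206, 9.90e-203 and 2.14e-208, a pair overlapping them had 4.24e-57 each, and the 3 farthest inward had 1.67e-80, 3.37e-80 and 8.25e-81. The gene annotated only as U2, within CCDC200, was instead covered at its 5′ end, over bases 4 to 21, with p-values of 9.97e-18 and 1.67e-33. The 49-base site of RNU2-2P has 46 bases in common with the matching stretch of that gene, and each of the 2 sites occurs once in the genome, but U2 has many near-identical copies and reads could be shared among them. RNU12, the U2 counterpart of the minor spliceosome, was covered over its last 15 bases (lowest p 9.82e-16). RN7SK, the RNA that holds the elongation factor P-TEFb inactive, was covered over its last 40 bases by 3 peaks with p-values of 1.69e-79, 1.98e-68 and 4.62e-50 from 5′ to 3′.

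The remaining classes held few genes. VTRNA1-1 and VTRNA1-2, vault RNAs that GENCODE types as misc_RNA, had lowest p-values of 5.48e-09 and 0.00430, and 1 Y_RNA gene had 0.00807. RNA5SP204, annotated as a pseudogene of 5S ribosomal RNA, held 3 abutting peaks over bases 95 to 117 of 118, all with a p listed as 0. The 23-base site has 22 bases in common with the 5S gene RNA5S1 and occurs once in the genome. RNA5SP152 (lowest p 2.69e-16) shares 17 of its 19 covered bases with RNA5S1, and RNA5-8SP4 (authors' p-value 2.92e-10) shares 14 of 15 with RNA5-8SN1 and occurs 10 times. None of the 17 genes RNA5S1 to RNA5S17 and none of the 3 RNA5-8SN genes had a peak. The vault RNA and the 5S pseudogene are shown with their sites.
VTRNA1-1 (chr5:140711275-140711373, plus strand): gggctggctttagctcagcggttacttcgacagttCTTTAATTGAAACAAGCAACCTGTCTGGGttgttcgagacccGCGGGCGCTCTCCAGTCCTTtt
RNA5SP204 (chr6:17721786-17721903, minus strand): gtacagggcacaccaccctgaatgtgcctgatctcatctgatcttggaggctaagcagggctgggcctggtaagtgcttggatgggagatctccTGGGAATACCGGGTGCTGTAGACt

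The frequency of genes with a peak differed between families. The share was 11.1% (8.01–15.3%) of 287 SNORD genes, 2.40% (0.935–6%) of 167 SNORA genes, 5.88% (2.02–15.9%) of 51 SCARNA genes and 0.319% (0.136–0.745%) of 1567 snRNA genes. The intervals of SNORD and SNORA genes did not overlap. The share was 7.30% of all annotated genes and 0.134% of genes of at most 400 bases outside the small RNA and microRNA types. Every annotated copy was counted, and the 287 SNORD genes include the 117 of SNORD113 to SNORD116. The shares thus depend on how many copies of a family are annotated.  RNA levels of the single genes were not analysed here, so a gene without a peak cannot be told apart from a gene without RNA.

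Several large families, counted with every annotated copy on the chromosomes with peaks, had no peak at all. These were the 117 genes of SNORD113 to SNORD116, which lie in imprinted clusters, 47 genes of SNORD3, the U3 RNA that acts in processing of the ribosomal precursor, the 1107 RNU6, 95 RNU1 and 95 RNU4 genes, and 690 genes of the signal recognition particle RNA (RN7SL and Metazoa_SRP). Of 76 RNU2 genes 2 had a peak, of 28 RNU5 genes 1, of 5 VTRNA genes 2, of 662 Y_RNA genes 1 and of 246 RN7SK and 7SK genes 1.

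All 37 genes of type snoRNA with a peak lay in introns of the canonical transcript of a host gene. The 30 hosts comprised 22 protein-coding genes, 10 of them for ribosomal proteins, and 8 non-coding genes, ZFAS1 and 7 named SNHG. Of the SNORD genes in ribosomal protein genes on these chromosomes, 14 of 36 had a peak (38.9%, 24.8–55.1%), of those in other protein-coding genes 11 of 71 (15.5%, 8.88–25.7%), of those in SNHG genes, GAS5 or ZFAS1 7 of 106 (6.60%, 3.24–13%), and of those in other or no host genes 0 of 48 and 0 of 26. The 106 include members of the SNORD113 to SNORD116 clusters, and without these, a comparison made after the values were seen, 7 of 28 had a peak (25.0%, 12.7–43.4%). The interval for ribosomal protein genes then overlapped with those of both other groups that held a peak. Of the 11 SNORA genes in ribosomal protein genes none had a peak.

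Most of these hosts had no other peak. In 27 of the 30 hosts no peak lay outside small RNA genes, and the exceptions included HSPA8 with 1 and RPL13A with 2 such peaks. Hosts with another peak were 10% (3.46–25.6%) of the 30, near the 7.30% of all annotated genes with a peak. The 30 hosts hold 78 SNORD, SNORA and SCARNA genes, of which 37 had a peak (47.4%), a share raised by the choice of hosts with at least 1. Of the 21 hosts with more than 1 such gene, none had a peak in all of them and 6 had a peak in more than 1. RPL13A had peaks in 3 of 4, HSPA8, RPL17, RPL3 and ZFAS1 in 2 of 3 each, and EIF4A2 in 2 of 5.

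Genes of proteins that work with these RNAs also held peaks. Of 62 genes on chromosomes with peaks in 6 lists of snoRNP proteins, their assembly factors, RNA polymerase I factors and partners of the other RNAs, 9 had a peak (14.5%, 7.83–25.3%), 7 of them outside small RNA genes (11.3%, 5.58–21.5%), against 7.30% of all annotated genes, which lies within the second of these intervals. These 7 were the assembly factors RUVBL1 (1 peak, authors' p-value 3.67e-22), RUVBL2 (1 peak, 0.0191) and NOLC1 (2 peaks, lowest 2.45e-39), the polymerase I subunits POLR1B (1 peak, 8.45e-05) and POLR1C (2 peaks, lowest 5.68e-60), SSB (the La protein, 1 peak, 4.64e-22) and SNRPB (the spliceosomal Sm B protein, 2 peaks, lowest 1.42e-05). None of the 3 H/ACA protein genes on chromosomes with peaks, NHP2, NOP10 and GAR1, held 1, nor did FBL, the gene of fibrillarin.

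The sequence of 50 of the 54 sites (92.6%) occurs once in the genome, counted on both strands, including 32 of the 34 SNORD sites. The 4 that occur more often hold 6 of the 154 peaks and lie in SNORD58A, SNORD83B, VTRNA1-2 and RNA5-8SP4.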

How the data were processed

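RNA crosslinked in V5-RRN3 SK-OV-3 cells was measured in 1 immunoprecipitate and 1 input library. The authors deposited 1 list of 7793 peaks, called between the pair. The fold enrichment (a ratio), p-value, false discovery rate and score of each peak were computed by the authors and serve here as descriptions. The aligner, the peak caller and the test are not given in the sources used here, while the build, GRCh38, comes from the submitters' processing notes. Read depth was not analysed here. The study's own motif and gene analyses were not used.

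Peaks were placed by the midpoint on GENCODE release 44, and genes and sequences were compared on GRCh38, with 1-based positions. Where 2 small RNA genes overlapped (7 peaks), the gene with its own symbol was taken. Touching or overlapping peaks of 1 strand were joined into sites. Ribosomal RNA sequences were those of RefSeq RNA18SN1, RNA28SN1 and RNA5-8SN1. Intervals are 95% Wilson intervals. Weak peaks had p above 1e-05. With 1 library per condition no test was run. Named were all genes of classes with fewer than 15 genes with a peak, the 20 snoRNA genes with the lowest p, the 5 genes with most peaks, hosts with 2 or more snoRNAs with a peak, and listed protein genes with a peak, and some others were added after their values were seen. Members, lists and this rule were chosen with earlier results of these data known. Results for 1 host gene and the sequence of 1 snRNA gene are not reported here. Placement was tested on simulated data. Alternatives covered placement by overlap, strand, joined sites, the stronger part of the list, the background and repeated sites. Tools were samtools 1.23.1, pysam 0.24.0 and Biopython 1.88 for sequences, and pandas 2.3.3, numpy 2.4.6, scipy 1.17.1 and matplotlib 3.10.9 under Python 3.11.15.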

Additional observations from a re-analysis of the deposited data

How the results depend on the processing

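Of 33 alternative settings over 11 results, 27 moved the value by little (a share by less than its interval), and 6 moved it further. Counting joined sites gave 54 in place of 154 peaks. Keeping only the part of the list with the lowest p-values, 1 peak in every 2, left 49 of the 154 peaks, lowered the share of small RNA genes with a peak from 1.08% to 0.345% and lowered the share of these peaks in genes of type snoRNA from 76.6% to 61.2%. The peaks in SNORD genes had a median p of 2.01e-15, against 2.21e-47 for the whole list. The share of snoRNA peaks in the first or last of 5 equal parts of the gene was 43.2% over peaks, 20.5% over joined sites, whose midpoints lie mid-gene when a site spans the gene, and 59.5% with the strongest peak of each gene. Placement by overlap and genes on either strand each gave 154 peaks, and leaving out sites that occur more than 1 time in the genome gave 148. Without SNORD58A, the snoRNA share in the outer parts was 42.2%. The 2 last settings were chosen after seeing the data. No paired analysis was possible because there is 1 library per condition. The number of reads behind each peak, the level of each RNA in the input and the handling of reads from repeated genes were not analysed here and limit what the absence of a peak shows. With no untagged precipitate, enrichment of abundant short RNAs in any precipitate cannot be told apart from binding.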
